A study of Oryza sativa with 8 samples.

Results

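The cytokinin response regulators of rice were followed on 8 arrays of scutellum callus treated with abscisic acid (ABA) or gibberellin (GA). Members were all probes whose gene carries RR and a number, with or without Os in front, as symbol or synonym in the RefSeq annotation of rice. That annotation holds 19 such genes, and 12 of them had a probe on the array, with 14 probes among the 17788 that are listed with a gene. RR22 and RR23 had 2 probes each. By the RR number, 6 of the measured genes were type A (RR1, RR2, RR4, RR5, RR6 and RR9), 5 were type B (RR21, RR22, RR23, RR24 and RR33) and 1 was type C (RR41). RR33 and RR41 also carry synonyms of an RRA series (OsRRA19 and OsRRA14), so the type of these genes rests on the RR number alone. The other 7 genes of the rule (RR7, RR10, RR11, RR13, RR25, RR27 and RR42) had no listed probe.

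Cytokinins are sensed by membrane histidine kinases, which pass a phosphate through histidine phosphotransfer proteins to the response regulators in the nucleus. Type B regulators join a receiver domain to a DNA-binding domain and switch on target genes, among them those of the type A regulators. Type A regulators have a receiver domain without the DNA-binding part, are induced rapidly by cytokinin and damp the pathway, so their transcripts are often used to gauge cytokinin signalling. Type C regulators resemble type A in structure but are not usually induced by cytokinin. In cultured plant tissue the balance of cytokinin and auxin is known to steer the formation of shoots and roots.

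Each array held treated and untreated callus of the japonica variety Nipponbare in 2 dyes. The callus, grown from the scutellum of the seed, had spent 30 d on medium with 10 µM 2,4-D, a synthetic auxin. It was then kept for 3 d with 50 µM ABA (arrays 19, 20, 23 and 24) or 50 µM GA (arrays 04, 05, 07 and 08), and set against callus without the hormone. The treated sample was in Cy5 on ABA arrays 19 and 23 and GA arrays 07 and 08, and in Cy3 on the rest. All values below are log2 ratios of treated over untreated callus. A ratio carries no level, and fewer cells of a type cannot be told apart from less RNA per cell. Whether arrays held separate cultures, and whether both hormones were set against the same untreated callus, is not given in the labels. The tests therefore rest on the spread between these arrays alone, which may be technical.

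The labels describe the ratio of every array as treated over untreated. As deposited, however, ABA arrays with opposite dyes correlated negatively over the listed probes (r of −0.60 to −0.51), and so did GA arrays (−0.82 to −0.70). The values were therefore read as Cy5 over Cy3 and turned in sign where the treated sample was in Cy3. Turning does not alter r between arrays with the same dyes, which was 0.936 and 0.938 for ABA pairs and 0.870 and 0.957 for GA pairs. Between opposite dyes it only reverses the sign, to 0.51 to 0.60 for ABA arrays and 0.70 to 0.82 for GA arrays. These lower values leave room for a sizeable dye bias. After turning, an ABA array set against a GA array had r of −0.40 to −0.02. The direction so obtained is likely, not certain. A probe was called changed at a Benjamini-Hochberg adjusted p under 0.05 in limma over all 17782 probes tested, which included all 14 response regulator probes.

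Under ABA the shifts were small, and all 6 type A probes had a mean below 0. Of them RR9 (1.29-fold), RR4, RR5 and RR1 were called lower and 0 were called higher. Of the type B probes RR21 and 1 probe of RR23 were called higher and RR24 lower. These 7 calls among 14 probes, 2 higher and 5 lower, stand beside 41.8 percent of all probes called under ABA, 18.0 percent higher and 23.7 percent lower. The median was −0.13 for type A and 0.06 for type B, against −0.00 over all probes, and 0 of the 14 probes were called with a change of at least 1.5-fold.

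RR9 (LOC4349747), a type A regulator known with RR10 as a restraint on salt tolerance, had log2 ratios of −0.43, −0.45, −0.21 and −0.40 on ABA arrays 19, 20, 23 and 24. It lay below 0 on all 4 arrays, in both dye orientations. Its mean was −0.37 ± 0.11 (SD, n = 4, limma adjusted p = 1.47e-04). RR10 is a near-identical copy of RR9 and had no listed probe, so the signal of the RR9 probe may include RR10 transcripts. RR24, a type B regulator needed at the start of meiosis, had −0.21, −0.22, −0.26 and −0.23 (mean −0.23 ± 0.02, SD, n = 4, limma adjusted p = 0.00167). These ratios had the smallest spread between arrays of any response regulator probe under ABA. The calls of RR9 and RR24 under ABA were kept in all 18 other fits tried.

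The other falls under ABA were less firm. RR4, a type A regulator, had −0.48, 0.09, −0.41 and 0.04 on ABA arrays 19, 20, 23 and 24 (mean −0.19 ± 0.30, SD, n = 4, limma adjusted p = 0.0433). It was thus well below 0 where the treated sample was in Cy5 and slightly above 0 where it was in Cy3. RR5, also type A, had −0.09, −0.22, −0.02 and −0.23 (mean −0.14 ± 0.10, SD, n = 4, limma adjusted p = 0.0205). RR1, known as a target of the crown root factor CRL5, had −0.19, −0.14, −0.14 and −0.03 (mean −0.12 ± 0.07, SD, n = 4, limma adjusted p = 0.0386). RR5 and RR1 were below 0 on all 4 arrays. RR6, whose overproduction is known to disturb cytokinin levels and growth in rice, had −0.12, 0.01, −0.26 and 0.06 and did not pass (limma adjusted p = 0.0957). RR2, held down by the root factor WOX11, had 0.04, −0.05, 0.07 and −0.10 and did not pass either (limma adjusted p = 0.885). The arrays of RR6 and RR2 lay on both sides of 0.

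RR21, a type B regulator, was called higher under ABA although its arrays lay on both sides of 0. It had −0.12 and −0.08 on ABA arrays 19 and 23, which carried the treated sample in Cy5, and 0.44 and 0.36 on arrays 20 and 24, which carried it in Cy3 (mean 0.15 ± 0.29, SD, n = 4, limma adjusted p = 0.0244). The dye term of this probe, Cy5 minus Cy3 arrays over both hormones, was −0.38 (adjusted p = 0.00268). RR23, another type B regulator, was called higher on feature 13586, with 0.12, 0.11, 0.03 and 0.12 (mean 0.10 ± 0.05, SD, n = 4, limma adjusted p = 0.0296). Its probe at feature 4372, with 0.19, 0.01, 0.09 and 0.05, did not pass (adjusted p = 0.157), except without GA array 07 (0.0499) or with ABA fitted on its own arrays (0.0240). Both RR23 probes were above 0 on all 4 ABA arrays. RR22, a type B regulator whose loss is known to make rice more tolerant of salt, averaged 0.04 ± 0.07 on feature 1167 and 0.06 ± 0.10 on feature 13867. RR33 averaged −0.05 ± 0.04 and the type C regulator RR41 0.01 ± 0.08 (SD, n = 4 each). None of these last 4 probes passed.

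Of the 7 calls under ABA, those of RR1, RR4, RR5, RR21 and RR23 each ended in some other fit. Without the dye term none of the 5 passed, with limma adjusted p-values of 0.0782 for RR1, 0.173 for RR4, 0.145 for RR5, 0.341 for RR21 and 0.0935 for RR23. The count of response regulator probes called was 3 without ABA array 19, 3 without ABA array 20, 3 without ABA array 24 and 4 without GA array 04. Without ABA array 23 or GA array 08 RR1 and RR4 lost their calls and 5 were left.

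Under GA most type A regulators were higher. RR9 was 3.09-fold higher in GA-treated callus, RR4 1.65-fold, RR6 1.56-fold and RR1 1.18-fold, while RR2 and RR5 did not pass the test. Of the type B regulators RR21 and RR22 were lower, the larger falls being 1.28-fold and 1.27-fold. These 7 calls among 14 probes, 4 higher and 3 lower, stand beside 49.0 percent of all probes called under GA, 26.2 percent higher and 22.8 percent lower. By probe, the calls split by type, with 4 of 6 type A probes higher and 0 lower, and 0 of 7 type B probes higher and 3 lower. These 3 were the probe of RR21 and both probes of RR22, so they are not separate genes. The median was 0.44 for type A and −0.04 for type B, against −0.01 over all probes.

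RR9 had log2 ratios of 1.64, 1.57, 1.74 and 1.56 on GA arrays 04, 05, 07 and 08. All 4 arrays lay close together in both dye orientations, with a mean of 1.63 ± 0.08 (SD, n = 4, limma adjusted p = 7.79e-09). The 95 percent interval of the mean ran from 1.53 to 1.73. Among all 17782 probes its GA ratio ranked 59 from the highest.

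RR4 had 0.77, 0.69, 0.73 and 0.69 on GA arrays 04, 05, 07 and 08 (mean 0.72 ± 0.04, SD, n = 4, limma adjusted p = 1.74e-05), with no split by dye. RR6 had 0.75, 0.67, 0.55 and 0.58 (mean 0.64 ± 0.09, SD, n = 4, limma adjusted p = 4.97e-07). The array ranges of RR4 and RR6 overlapped, and both lay well below RR9. RR1 had 0.24, 0.14, 0.35 and 0.24 (mean 0.24 ± 0.09, SD, n = 4, limma adjusted p = 8.91e-04). It was above 0 on all 4 arrays and below RR4 and RR6 on each. The calls of RR9, RR4, RR6 and RR1 under GA were kept in all 18 other fits tried.

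RR2 had 0.37, 0.22, 0.09 and −0.05 on GA arrays 04, 05, 07 and 08 (mean 0.16 ± 0.18, SD, n = 4, limma adjusted p = 0.0569). Its higher ratios were those on the Cy3 arrays. It passed with a dye term for each hormone (adjusted p = 0.00650), with GA fitted on its own arrays (0.0321) and without GA array 08 (0.0182). RR5 had −0.0032, −0.0016, 0.09 and 0.32 (mean 0.10 ± 0.15, SD, n = 4, limma adjusted p = 0.0606), and passed without GA array 07 (0.00954). It was next to 0 on the Cy3 arrays and above 0 on the Cy5 arrays. Missing the threshold does not show that these genes were unaltered, and the 95 percent intervals of their means ran from 0.02 to 0.29 for RR2 and from 0.01 to 0.19 for RR5.

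RR21 had −0.21, −0.25, −0.41 and −0.57 on GA arrays 04, 05, 07 and 08 (mean −0.36 ± 0.17, SD, n = 4, limma adjusted p = 1.25e-04). RR22 had −0.20, −0.21, −0.37 and −0.61 on feature 1167 (mean −0.35 ± 0.19, SD, n = 4, limma adjusted p = 2.54e-04). Both probes were below 0 on all 4 arrays and lowest on array 08, and their Cy5 arrays (07 and 08) lay below their Cy3 arrays. The other RR22 probe, feature 13867, gave a smaller fall, with −0.14, −0.30, −0.03 and −0.03 (mean −0.12 ± 0.13, SD, n = 4, limma adjusted p = 0.0115). That call ended without the dye term (0.120) and when GA array 05 was left out (0.0832), while the calls of RR21 and of RR22 at feature 1167 were kept in all 18 other fits.

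The remaining regulators did not pass under GA. RR23 averaged 0.02 ± 0.13 on feature 4372 and 0.02 ± 0.05 on feature 13586 (SD, n = 4 each). RR24 had −0.19, −0.13, 0.08 and 0.10 on GA arrays 04, 05, 07 and 08, so that its sign followed the dye orientation. RR33 averaged −0.04 ± 0.08 and RR41 −0.02 ± 0.16 (SD, n = 4 each). The limma adjusted p-values of these 5 probes ran from 0.334 for RR33 to 0.845 for RR41.

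**Figure D1:**
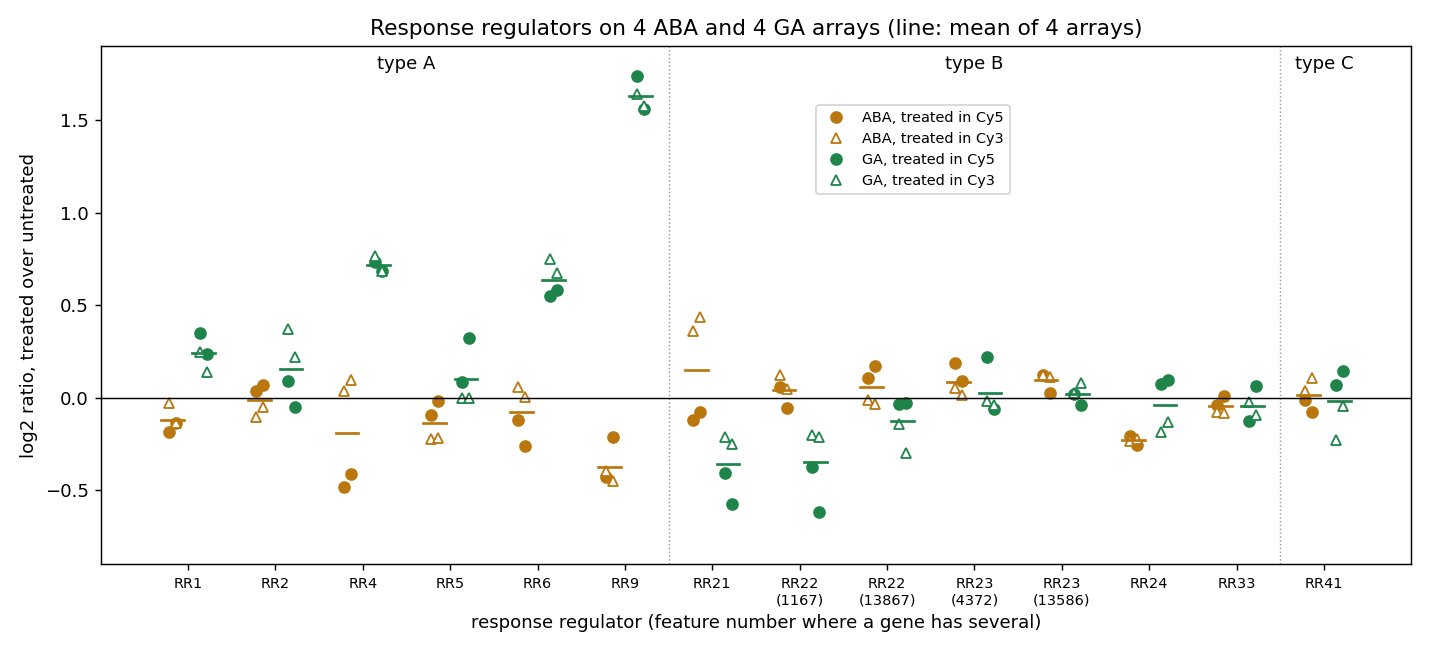
Log2 ratio of treated over untreated callus (vertical axis) for each of the 14 response regulator probes (horizontal axis), with ABA left and GA right within each probe. Filled circles are arrays with the treated sample in Cy5, open triangles those with it in Cy3, and lines are means of 4 arrays: RR9, RR4, RR6 and RR1 lie above 0 on all 4 GA arrays, and RR21 and both RR22 probes below 0. The ABA points of RR4 and RR21 separate most widely by dye, and points of several other probes separate less widely under ABA or GA.

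The median over each type was also taken on each array. For type A it was −0.15, −0.09, −0.18 and −0.07 on ABA arrays 19, 20, 23 and 24, and 0.56, 0.44, 0.45 and 0.45 on GA arrays 04, 05, 07 and 08. For type B it was 0.06, 0.01, 0.01 and 0.05 on the ABA arrays and −0.14, −0.13, −0.03 and −0.04 on the GA arrays. Type A was thus below type B on all 4 ABA arrays and above it on all 4 GA arrays, and no test was made between the types. Without RR9 the type A median was −0.12 under ABA and 0.24 under GA. Under GA this is the value of RR1, to which the median moves when any of RR9, RR4 and RR6 is left out. Without RR33, which carries a synonym of the RRA series, the type B median was 0.07 under ABA and −0.08 under GA.

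**Figure D2:**
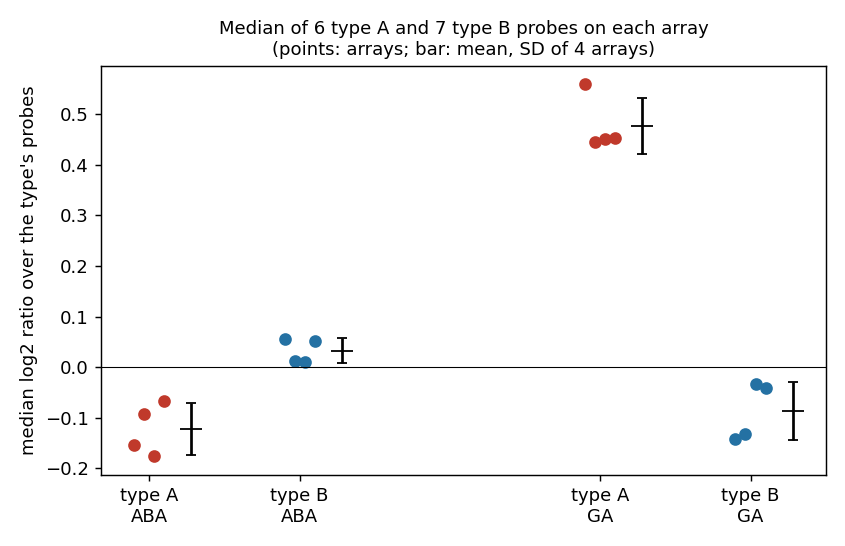
Median log2 ratio of treated over untreated callus (vertical axis) over the 6 type A or 7 type B probes on each array, by type and hormone (horizontal axis); points are arrays, and the bar beside them is the mean with the SD of 4 arrays. Type A medians lie from −0.18 to −0.07 under ABA and from 0.44 to 0.56 under GA.

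The difference between the hormones was tested in the same fit as ABA minus GA. It was called for 9 of 14 response regulator probes, where 50.0 percent of all probes were called. Of the type A probes 5 of 6 were lower under ABA than under GA and 0 higher, where 27.3 percent of all probes were called lower. RR9 differed most, by −2.00 (95 percent interval −2.14 to −1.86, limma adjusted p = 1.28e-08), which is 4.00-fold lower with ABA than with GA. RR4 differed by −0.91 (adjusted p = 3.97e-05), RR6 by −0.72 (2.34e-06), RR1 by −0.36 (6.66e-04) and RR5 by −0.24 (0.00627). RR2 missed the threshold at −0.17 (95 percent interval −0.36 to 0.02, adjusted p = 0.129). It passed with a dye term for each hormone (0.0211), without GA array 08 (0.0398) or on the Cy3 arrays alone (0.00471).

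The ABA and GA arrays did not overlap for 8 of 14 response regulator probes, where this held for 36.2 percent of the 17775 probes with a value on all arrays. For RR1, RR4, RR5, RR6, RR9 and the type B regulator RR24 every ABA array lay below every GA array. This held for 20.8 percent of the 17775 probes. For RR21 and for RR22 at feature 1167 every ABA array lay above every GA array. Within 1 dye orientation the dye bias of a probe cancels in the difference only if it is the same under both hormones. RR9 differed by −1.97 on the Cy5 arrays and by −2.03 on the Cy3 arrays. RR6 gave −0.76 and −0.68, RR4 −1.16 and −0.66, RR1 −0.45 and −0.27, and RR5 −0.26 and −0.22. The sign was thus the same in both orientations for these genes, though RR5 did not pass on the Cy5 arrays alone (adjusted p = 0.0921) or with no dye term (0.0630). For RR2 the orientations disagreed, with 0.03 on the Cy5 arrays and −0.37 on the Cy3 arrays.

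Among the type B probes 3 were higher under ABA than under GA and 1 was lower, where 22.7 percent of all probes were called higher. RR21 was higher by 0.51 (limma adjusted p = 1.36e-04), and RR22 by 0.39 on feature 1167 (0.00116) and by 0.18 on feature 13867 (0.0102). RR24 had a difference of −0.19 (adjusted p = 0.0197), a call that ended without ABA array 19 (0.0617), ABA array 23 (0.0569) or GA array 08 (0.0542), and with no dye term (0.0757). On the Cy5 arrays alone its difference was −0.32, and on the Cy3 arrays alone it was −0.07 and did not pass (0.129). RR22 at feature 13867 did not pass with no dye term (0.110) or on the Cy5 arrays alone (0.105). RR23 differed by 0.06 on feature 4372 (95 percent interval −0.08 to 0.20) and by 0.08 on feature 13586 (−0.02 to 0.17). RR33 differed by −0.00 (−0.12 to 0.11) and RR41 by 0.03 (−0.15 to 0.21), and none of these 4 probes passed. On the Cy3 arrays alone RR41 was at 0.21 and passed (adjusted p = 0.0489), and on the Cy5 arrays alone it was at −0.15. Were the GA arrays to run in the other direction, RR9 would differ by 1.26 (adjusted p = 6.62e-07) and RR6 by 0.56 (1.95e-05), so the sign of these differences rests on the direction of the GA arrays.

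**Figure D3:**
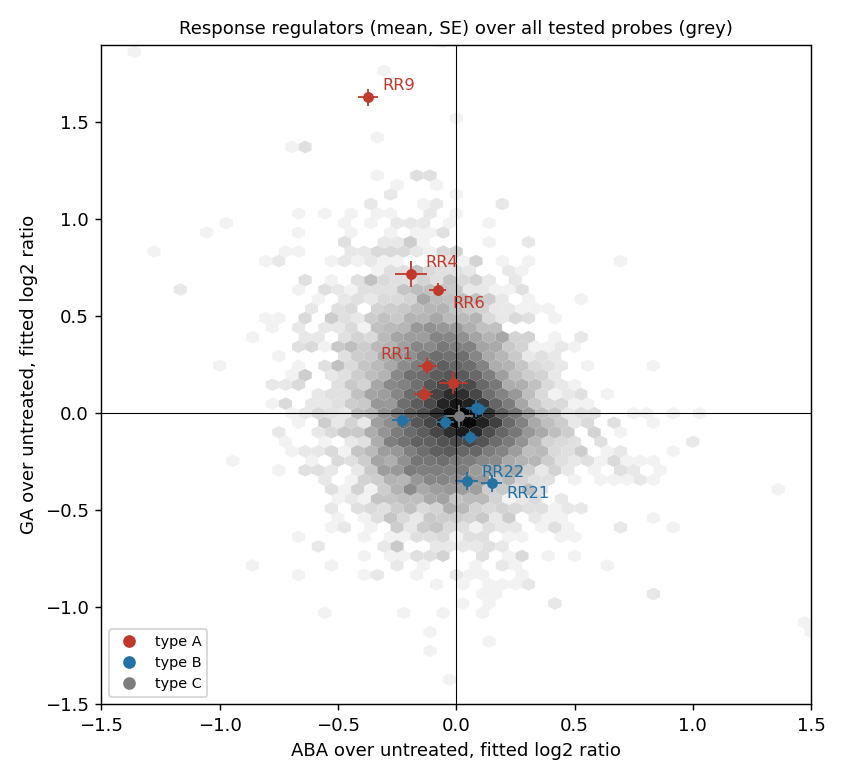
Fitted log2 ratio under ABA (horizontal axis) and under GA (vertical axis) for the response regulators, coloured by type with bars of 1 SE, over the density of all tested probes in grey; probes outside the axes are not drawn. RR9 stands at −0.37 under ABA and 1.63 under GA, outside the dense part, and RR4 and RR6 follow below it.

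The other genes of the cytokinin pathway were taken by name, and 27 probes of 21 genes were found. They did not move in 1 direction. Under ABA 9 of 27 were called higher and 5 lower, with a median of 0.06, and under GA 5 were higher and 9 lower, with a median of −0.03. For ABA minus GA 11 were higher and 5 lower. The 14 calls under ABA, 14 under GA and 16 for the difference stand beside 41.8, 49.0 and 50.0 percent of all probes called. By direction, 18.0 percent of all probes were higher and 23.7 percent lower under ABA, and 26.2 and 22.8 percent under GA. For the difference these shares were 22.7 percent higher and 27.3 percent lower. The counts depended on the dye term, without which 7 of the 27 were called under ABA, 4 higher and 3 lower.

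The LOG family, whose enzymes release active cytokinin from its nucleotides, changed in both directions. LOGL3 had −0.72, −0.67, −0.67 and −0.66 on ABA arrays 19, 20, 23 and 24 and −0.64, −0.63, −0.95 and −0.80 on GA arrays 04, 05, 07 and 08. It fell under ABA (mean −0.68, adjusted p = 1.81e-06) and under GA (mean −0.75, adjusted p = 5.37e-07), and the difference did not pass (0.07, 95 percent interval −0.06 to 0.21, adjusted p = 0.316). LOGL10 had 0.31, 0.08, 0.46 and 0.06 on the ABA arrays and 0.55, 0.53, 0.73 and 0.93 on the GA arrays. All 8 values were above 0, with the GA arrays higher. Its mean was 0.23 under ABA (adjusted p = 0.00145, but 0.0750 with no dye term) and 0.68 under GA (7.31e-07).

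The other LOG genes given here were picked after their values were seen. LOGL6 had −0.56, −0.66, −0.40 and −0.56 on ABA arrays 19, 20, 23 and 24, and 0.24, 0.39, 1.06 and 0.42 on the GA arrays. It was below 0 on all 4 ABA arrays (mean −0.55, adjusted p = 0.00131) and above 0 on all 4 GA arrays (mean 0.53, adjusted p = 0.00110). For LOG itself the probes disagreed. Feature 19029 was at −0.18 under ABA (adjusted p = 0.00200) and −0.42 under GA (6.19e-06), while feature 13838 was at 0.14 under ABA and −0.04 under GA and passed under neither. LOGL1 fell under both hormones on feature 21413 (−0.17, adjusted p = 0.0133, and −0.39, 6.46e-05). On feature 15175 it passed only under GA (−0.20, adjusted p = 0.00133). Of all 10 LOG family probes 3 were called higher and 4 lower under ABA, beside 18.0 and 23.7 percent of all probes. Under GA 2 were called higher and 4 lower, beside 26.2 and 22.8 percent.

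CKX1, a cytokinin oxidase that breaks the hormone down, had 0.31, 0.25, 0.22 and 0.22 on ABA arrays 19, 20, 23 and 24 and 0.75, 0.91, 0.44 and 0.44 on GA arrays 04, 05, 07 and 08. All 8 arrays were above 0, and the GA arrays were above the ABA arrays. It rose under ABA (0.25, adjusted p = 0.00850), though not without ABA array 19 (0.0556), and under GA (0.63, adjusted p = 2.13e-05), and the difference was −0.38 (adjusted p = 0.00476). Of the other 3 oxidase genes measured, CKX5 fell under GA (−0.21, adjusted p = 0.00176) and did not pass under ABA (0.06), and CKX3 and CKX11 passed under neither.

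The relay between hormone and regulators was measured by 2 probes of receptor kinase genes and 5 of phosphotransfer genes, whose named genes were picked after their values were seen. The receptor gene HK3 was at −0.09 under ABA (adjusted p = 0.0364) and −0.13 under GA (0.00472). On ABA arrays 19, 20, 23 and 24 it had −0.18, 0.0011, −0.17 and −0.0092, and its dye term was −0.13. HK4 passed under neither hormone, but its difference of −0.15 did (adjusted p = 0.0146). The phosphotransfer gene AHP1 was at 0.19 under ABA (adjusted p = 0.00400) and −0.13 under GA (0.0216), with a difference of 0.32 (0.00115). Its dye term was 0.63, and its arrays lay on both sides of 0 under each hormone. AHP2 was at −0.02 under ABA and −0.17 under GA (adjusted p = 0.00216), with a difference of 0.15 (0.0246). Of the 3 probes of PHP5, a pseudo-phosphotransfer gene, feature 18696 was higher under GA (0.16, adjusted p = 0.0154) and the other two passed under neither hormone.

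Pseudo-response regulators are clock proteins with a receiver-like domain that takes no phosphate from this relay. PRR37 had 0.36, 0.70, 0.28 and 0.70 on ABA arrays 19, 20, 23 and 24 and 0.20, 0.20, 0.05 and −0.12 on GA arrays 04, 05, 07 and 08. Every ABA array lay above every GA array. It rose under ABA (mean 0.51 ± 0.22, SD, n = 4, limma adjusted p = 7.39e-06) and did not pass under GA (mean 0.08 ± 0.15, SD, n = 4, adjusted p = 0.102). All 3 probes of PRR73 were called higher under ABA (0.31, 0.31 and 0.22) and none under GA. One of them, feature 6029, had −0.06, 0.74, −0.13 and 0.68 on ABA arrays 19, 20, 23 and 24, and a dye term of −0.63. PRR1 did not pass under ABA (−0.09) and rose under GA (0.30, adjusted p = 2.46e-04), with a difference of −0.40 (4.41e-04). PRR95 did not pass under ABA (0.07) and fell under GA (−0.12, adjusted p = 0.00531). It had −0.25, −0.24, −0.01 and 0.02 on GA arrays 04, 05, 07 and 08, and a dye term of 0.28.

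**Figure D4:**
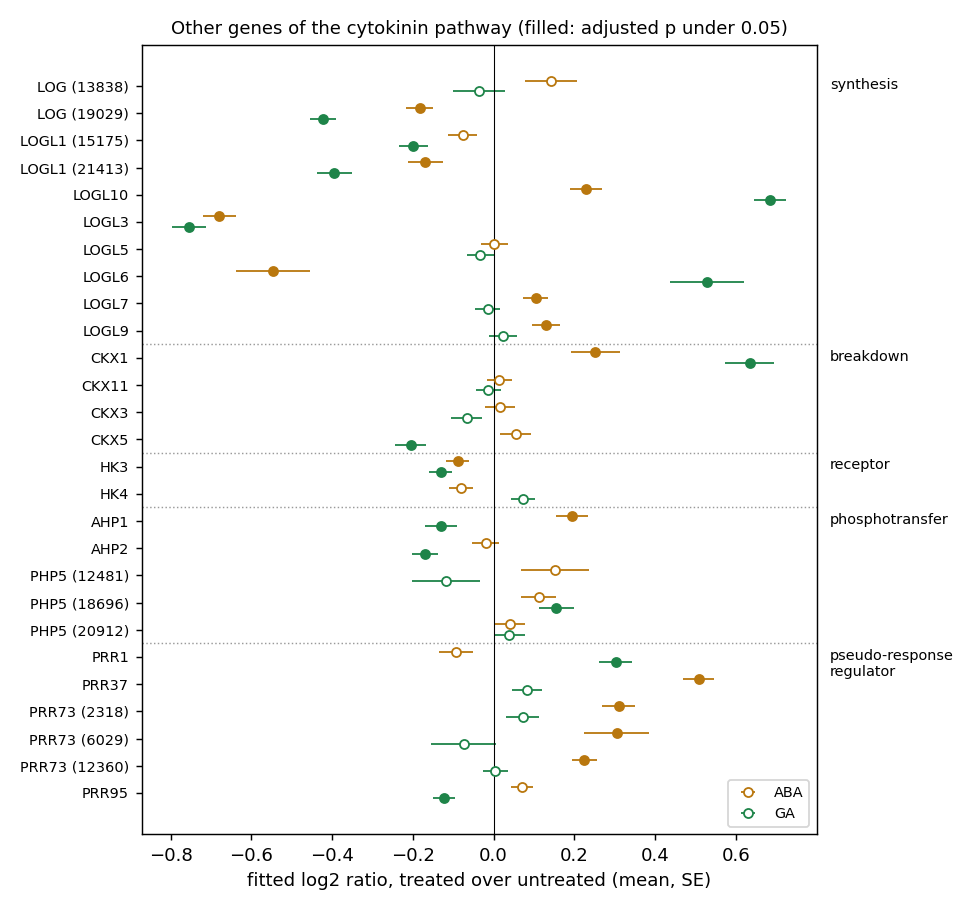
Fitted log2 ratio of treated over untreated callus (horizontal axis, mean and SE) for 27 probes of other cytokinin pathway genes, grouped by step, with ABA above GA in each row; filled points have an adjusted p under 0.05. LOGL3 lies at −0.68 under ABA and −0.75 under GA, and LOGL10 and CKX1 at 0.68 and 0.63 under GA.

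Among the 2468 named probes compared, all with a value on every array, those most like RR9 had the smallest root mean square difference of the log2 ratio over the 8 arrays. The closest was OsWNK3, a kinase gene of the WNK family, at 0.179, with a mean of −0.19 under ABA and 1.51 under GA. Next came the beta-glucosidase gene BGLU16 at 0.221 (−0.35 under ABA and 1.41 under GA) and the cell wall invertase gene CIN4 at 0.224 (−0.30 and 1.41). The lipoxygenase gene LOX1.1 followed at 0.252 (−0.54 and 1.69) and the cellulose synthase-like gene CSLH1 at 0.268 (−0.27 and 1.34). None of the 5 is a response regulator. The points share 2 sets of 4 arrays, and the measure compares only the sizes of their ratios.

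Markers of tissues that callus could form were set beside these results, matched on names alone. Of all probes tested 18.0 percent were called higher and 23.7 percent lower under ABA, and 26.2 and 22.8 percent under GA. Of 22 probes for meristem and dividing tissue 5 were called higher and 11 lower under ABA, and 9 higher and 5 lower under GA. Their fitted ratios ranged from −0.77 to 0.51 under ABA and from −0.78 to 0.74 under GA, so they did not move in 1 direction under either hormone. Of 8 probes for green tissue 4 were higher and 1 lower under ABA, and 1 higher and 3 lower under GA. Of 4 seed embryo probes (EM, RAB16B, RAB16C and OsVP1) all 4 were higher under ABA, and 0 higher and 3 lower under GA. Whether these ratios reflect embryo tissue was not tested. The only root marker measured, OsWOX9, was lower under both (−0.16 under ABA and −0.58 under GA). Their part in the response regulator ratios was not tested.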

How the data were processed

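The table deposited by the authors holds 1 LOWESS-normalized log10 ratio per feature and array, for 22575 features of the NIAS 22K rice oligo array of Agilent, per the labels. Neither the labels nor the table name the log base, and log10 was assumed, as this maker's software writes it, so folds rest on it while calls do not. Background correction, spot filters and software have no entry in these sources. Depth does not apply to arrays, and their number limits the precision.

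Ratios were multiplied by 3.32 to give log2 and turned to treated over untreated. Exact zeros (1 to 6 per array among listed probes) counted as missing. With 3 or more values required under each hormone, 17782 of 17788 listed probes were tested. By gene ID 17769 probes matched the RefSeq annotation of rice, whose coordinates were not used. It gives no gene descriptions, so the type of a regulator was taken from its RR number (1 to 13 type A, 21 to 33 type B, 41 and 42 type C) and the pathway list from names alone, not from descriptions as planned. Sequences were not used here.

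The model in limma 3.58.1 (R 4.3.3) had 1 mean per hormone plus a common dye term, with 5 residual and 3.93 prior degrees of freedom. Each mean was set against 0, and the ABA mean against the GA mean, with Benjamini-Hochberg adjustment over all probes tested, and the method was tested on simulated data. SDs are between 4 arrays and include dye bias, of which the tests take out the part common to both hormones. Every member is named. Of the pathway list, the 2 probes per hormone with the smallest p and any called with at least 1.5-fold are named by rule, and the rest of its named genes were picked after their values were seen. Members and lists were chosen with earlier results of these data known. Alternatives covered the dye term, scaling, zeros, unlisted features, the fit, thresholds and each array left out.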

Additional observations from a re-analysis of the deposited data

Results flagged for a closer look

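Of 36 sets of 4 arrays examined, 2 had an array whose gap to the nearest other was a large share of the range. The share exceeded the 95 percent critical value of Dixon's test, which chance gives in about 1 of 20 sets. That rate holds for sets without dye bias, which these sets can carry. RR23 at feature 4372 stood at 0.219 on GA array 07, while the other GA arrays lay from −0.06 to −0.02. RR23 at feature 13586 stood at 0.0271 on ABA array 23, while the other ABA arrays lay from 0.11 to 0.12.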

How the results depend on the processing

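No paired analysis was possible because the hormones share no array numbers. In 18 other fits per hormone and 19 for their difference, 2 of 7 calls of response regulators under ABA, 6 of 7 under GA and 6 of 9 of ABA minus GA were kept throughout, and 0 called values changed sign in these fits. The count under ABA was 2 without the dye term, 2 at an adjusted p under 0.01, 0 with at least 1.5-fold and 3 to 8 with an array left out. Under GA it was 3 with at least 1.5-fold and 6 to 8 with an array left out, and for ABA minus GA 3 and 8 to 9. In the pathway list the count under ABA was 7 without the dye term, 9 at an adjusted p under 0.01, 1 with at least 1.5-fold and 9 to 18 with an array left out. Under GA it was 3 with at least 1.5-fold and 12 to 14 with an array left out, and for the difference 7 without the dye term, 1 with at least 1.5-fold and 12 to 18 with an array left out. The type A median was 0.38 under GA and −0.46 for the difference with quantile normalization, and 0.24 and −0.36 without RR9. Leaving out RR9 or RR33 and the fits within 1 dye orientation were chosen after seeing the data. The causes were not tested, except that stricter thresholds pass fewer probes by construction.

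In the same fits signs changed only for values that had not passed. With an array left out, RR2 under ABA lay from −0.0598 to 0.0383, RR23 at feature 4372 under GA from −0.0317 to 0.0813, RR41 under ABA from −0.0362 to 0.0618, under GA from −0.0653 to 0.0564 and for the difference from −0.0431 to 0.0786, and RR33 for the difference from −0.0424 to 0.0317. The difference of RR33 was 0.0122 with median centring, 0.000822 with scale and 0.0171 with quantile normalization. On the Cy5 arrays alone the difference was 0.0177 for RR33, 0.0328 for RR2 and −0.150 for RR41. With the GA arrays turned in sign, 7 response regulator probes were called for the difference, and 5 called differences changed sign and still passed: RR9 (1.26), RR4 (0.53), RR6 (0.56), RR21 (−0.21) and RR22 at feature 1167 (−0.31). RR1 (0.12) and RR22 at feature 13867 (−0.07) changed sign and no longer passed.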
